A study of Mus musculus with 6 samples.

Results

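Interferon response genes are genes that cells switch on when a type I interferon reaches them. Their levels were compared in the intervertebral discs (IVDs) of Adgrg6 mutant and control mice. The 10 genes were taken by symbol, as 10 rows of a table of 43472 gene symbols: the signalling factors Stat2, Irf9 and Irf7, the antiviral effectors Ifit1, Ifit3, Oasl2, Rsad2 and Bst2, and the ubiquitin-like modifier Isg15 with its protease Usp18. Poly(A) RNA of whole IVDs was sequenced at postnatal day 20 (P20), from 3 pools of discs of Col2Cre;Adgrg6 f/f mutant mice and 3 of Cre (-) littermate controls, and pools 1 to 3 of a group are its replicates. Every pool held the discs of 2 to 3 mice of the C57B6/J strain, so a library stands for a pool and not for a mouse. The genotype labels call the control mice wild type, their titles call them Col2Cre controls, and the sex of the mice is not given. The mutant mice carry the Col2Cre transgene, which by the study's account recombines in all regions of the disc from embryonic development on, and loxP-flanked Adgrg6, a G protein-coupled receptor of the adhesion class. Cells in which Col2Cre was never active keep the gene, and they are part of the mutant pools too.

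Type I interferons bind the receptor chains Ifnar1 and Ifnar2, whose kinases Jak1 and Tyk2 phosphorylate Stat2. Phosphorylated Stat2 joins Irf9, and the complex built on them binds the interferon-stimulated response element (ISRE) in front of its target genes. Interferon gamma acts at another element, the gamma-activated site (GAS). Many tissues hold a low level of interferon response genes without infection, and these genes typically rise together when the pathway is active.

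The promoters of 9 of the 10 genes were at hand in RefSeq on GRCm38.p6, as the 250 bases before and the first 50 bases after the transcription start, and Usp18 had no entry. The letters GAAANNGAAA, or TTTCNNTTTC on the other strand, were taken as an ISRE core. They were found in 6 of the 9 genes (66.7%), Isg15, Ifit1, Ifit3, Rsad2, Bst2 and Stat2, and in 3.44% of all 32851 promoters of this length or 3.99% of the 27025 gene symbols that have one. They were also found in 10 of 17 genes induced by interferon gamma, 11 of 19 interferon ligands and 19 of 50 other genes induced by type I interferon. In the other lists of the pathway the share was lower, from 0 of 8 receptors and kinases to 5 of 16 genes of class I antigen presentation. Oasl2, Irf7 and Irf9 did not hold these letters in this window. A match is a stretch of letters and not a shown binding site. The promoters of Isg15, Ifit1, Ifit3 and Bst2 are given below, since they hold more than 1 match each. That of Irf7 is given as a contrast without a match. For Irf7 and Bst2 the libraries of the groups did not overlap, though neither gene passed the test. Capitals mark the ISRE core, and overlapping matches run into each other. The sequences lie at chr4:156200769-156201068 (minus strand) for Isg15, chr19:34640639-34640938 (plus strand) for Ifit1, chr19:34583279-34583578 (plus strand) for Ifit3, chr8:71537423-71537722 (minus strand) for Bst2 and chr7:141266375-141266674 (minus strand) for Irf7.
Isg15: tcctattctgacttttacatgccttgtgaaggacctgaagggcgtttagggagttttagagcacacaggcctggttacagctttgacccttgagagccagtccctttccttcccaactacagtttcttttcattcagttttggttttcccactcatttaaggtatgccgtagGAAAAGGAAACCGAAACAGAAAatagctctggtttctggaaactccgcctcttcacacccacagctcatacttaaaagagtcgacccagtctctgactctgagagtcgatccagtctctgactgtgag
Ifit1: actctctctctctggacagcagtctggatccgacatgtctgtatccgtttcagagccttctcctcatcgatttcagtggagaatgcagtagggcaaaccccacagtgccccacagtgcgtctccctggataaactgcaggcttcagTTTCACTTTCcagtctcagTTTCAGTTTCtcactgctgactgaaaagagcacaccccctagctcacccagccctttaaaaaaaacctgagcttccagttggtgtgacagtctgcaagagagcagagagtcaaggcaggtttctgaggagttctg
Ifit3: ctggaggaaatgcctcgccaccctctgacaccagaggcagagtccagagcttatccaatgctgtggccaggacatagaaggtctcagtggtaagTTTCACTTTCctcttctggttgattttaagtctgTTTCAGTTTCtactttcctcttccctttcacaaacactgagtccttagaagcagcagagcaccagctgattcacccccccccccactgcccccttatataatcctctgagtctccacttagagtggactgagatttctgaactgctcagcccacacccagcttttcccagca
Bst2: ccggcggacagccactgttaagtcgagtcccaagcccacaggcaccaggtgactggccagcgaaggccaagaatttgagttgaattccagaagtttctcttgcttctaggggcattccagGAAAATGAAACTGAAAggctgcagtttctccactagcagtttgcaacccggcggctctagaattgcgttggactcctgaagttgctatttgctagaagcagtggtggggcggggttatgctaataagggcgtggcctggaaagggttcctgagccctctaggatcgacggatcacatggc
Irf7: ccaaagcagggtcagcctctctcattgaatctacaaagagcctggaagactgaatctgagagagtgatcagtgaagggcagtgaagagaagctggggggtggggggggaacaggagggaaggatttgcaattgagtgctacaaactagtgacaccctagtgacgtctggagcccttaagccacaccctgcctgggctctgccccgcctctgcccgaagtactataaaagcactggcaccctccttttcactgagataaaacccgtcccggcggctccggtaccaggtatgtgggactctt

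Isg15 held 3 overlapping matches, which began 78, 72 and 66 bases before the start. Bst2 held 2 overlapping matches, at 130 and 124 bases before its start. Ifit1 held 2 matches at 104 and 85 bases, and Ifit3 2 at 156 and 122 bases before their starts. The match of Rsad2 began 120 bases and that of Stat2 222 bases before the start. A GAS core, the letters TTCNNNGAA, which read the same on both strands, was found in Bst2 alone (1 of 9 genes, against 8.30% of all promoters or 9.55% of the gene symbols that have one). It began 136 bases before the start as TTCCAGGAA and overlaps the first ISRE match of that promoter.

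**Figure D1:**
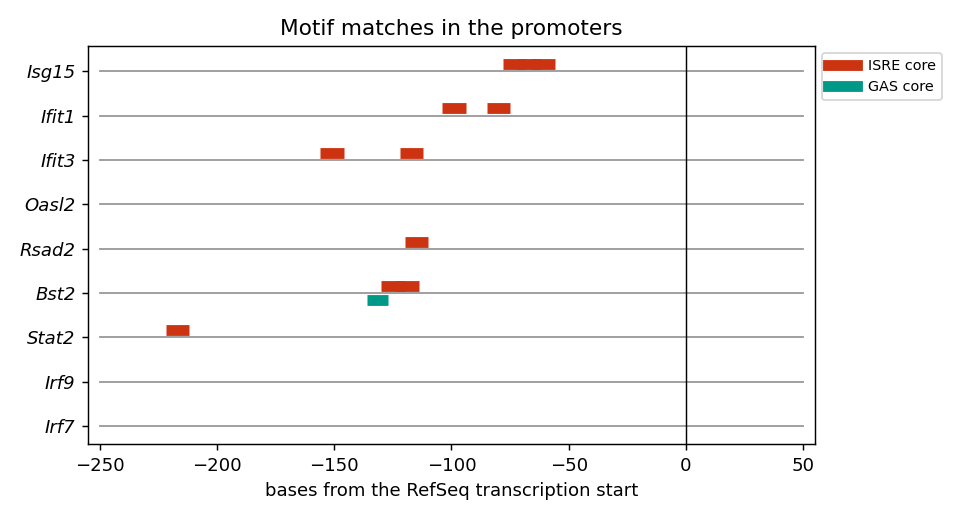
Positions of the ISRE core (red) and the GAS core (green) in the promoters of 9 interferon response genes, in bases from the RefSeq transcription start, which is the black line. 6 of the 9 promoters hold an ISRE core, all of them upstream of the start, and Oasl2, Irf9 and Irf7 hold none in this window.

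The 6 libraries held between 9061491 and 12017008 counts on genes, which were 40.4% to 44.2% of the reads, and levels are given as CPM, counts scaled to the same total in each library with TMM factors. A count of 1 was worth 0.0776 to 0.114 CPM. The markers of disc cartilage summed to 78334 to 139646 CPM and those of the nucleus pulposus to 2097 to 5522 CPM. Control replicate 1 stood apart by its skeletal muscle markers, with 3601 CPM summed over 6 genes against 64.6 to 148 CPM in the other libraries, and values without it are given where they change a result. Adgrg6, listed under its older symbol Gpr126, had 123, 107 and 93.6 CPM in control pools 1 to 3 and 138, 123 and 106 CPM in mutant pools 1 to 3. Its log2 fold change of mutant over control was 0.17 ± 0.18 (SE). Counts over the whole gene do not measure the deleted part, so this level checks nothing about the labels. In whole discs, fewer cells of a type and less RNA per cell cannot be told apart.

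All 10 genes passed the filter on low counts. None of them passed the test of mutant against control IVDs. At an unadjusted p under 0.05, edgeR's quasi-likelihood test called 0 of the 10 genes, against 7.21% of all 16152 genes tested (1164 genes, 467 of them higher and 697 lower in the mutant). At an adjusted p under 0.05 it called 0 of the 10 genes and 0.00619% of all genes, which is 1 gene. DESeq2 also called 0 of the 10 at either threshold. Over all 16152 genes it called 1227 at an unadjusted p and 58 at an adjusted p under 0.05. The log2 fold change of mutant over control was above 0 for 4 of the 10 genes and below 0 for 6. The median was -0.05, and it was -0.01 over all genes tested. The libraries of the groups did not overlap for 2 of the 10 genes, Irf7 (higher in the mutant) and Bst2 (lower), which is 20.0% of them against 11.4% of all genes tested.

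**Figure D2:**
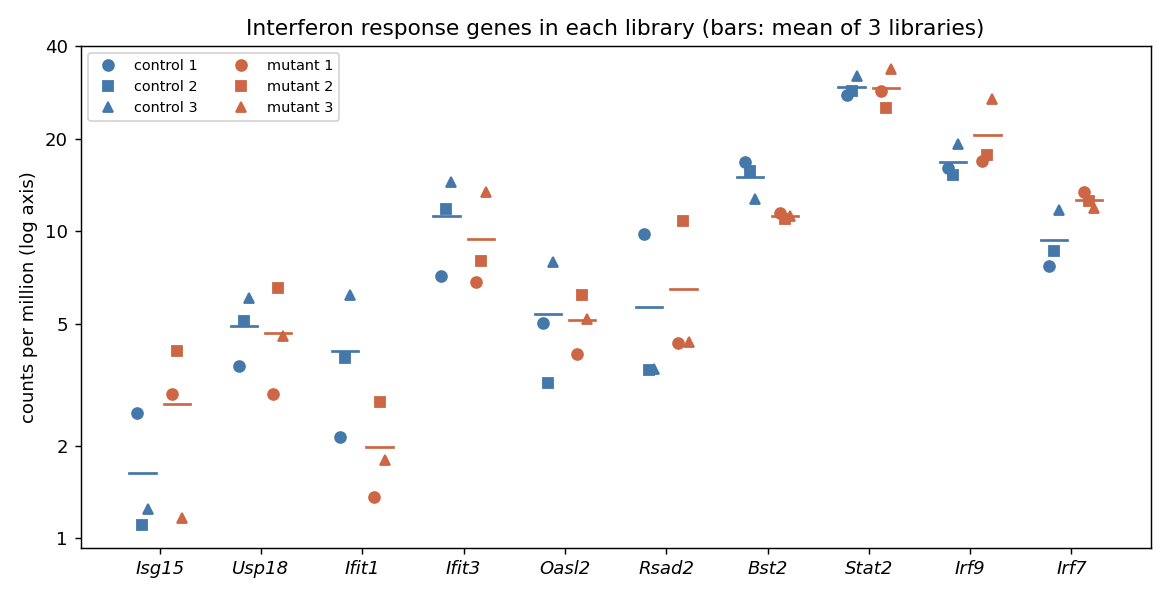
CPM of the 10 interferon response genes in each library on a log axis, with control libraries in blue and mutant libraries in orange, symbols for pools 1 to 3 and bars at the mean of 3 libraries. The mutant libraries lie above all control libraries for Irf7 and below all control libraries for Bst2, and the groups overlap for the other 8 genes.

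Stat2 is the STAT protein that is specific to type I and type III interferon signalling, and it was the gene with the most counts of the 10 (1812 in all). Stat2 (ENSMUSG00000040033, chr10:128270559-128292849) had 27.8, 28.6 and 32.1 CPM in control pools 1 to 3 and 28.6, 25.2 and 33.8 CPM in mutant pools 1 to 3. The groups overlapped, and the highest library was only 1.34 times the lowest, which was the smallest range of the 10 genes. Its means were 29.5 ± 2.27 CPM in control and 29.2 ± 4.36 CPM in mutant IVDs (SD, n = 3). The log2 fold change was -0.02 ± 0.17 (SE), with a 95% interval of -0.41 to 0.37 (adjusted p = 0.987, edgeR). For this gene the interval leaves out a rise above 1.29 times and a fall below 0.753 times the control level.

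Irf9 is the DNA-binding partner of Stat2. Irf9 (ENSMUSG00000002325, chr14:55603571-55610030) had 16.0, 15.3 and 19.2 CPM in the control pools and 16.9, 17.8 and 26.9 CPM in the mutant pools. Mutant replicate 3 was the highest library, while mutant pools 1 and 2 lay within the control range. Its means were 16.8 ± 2.08 and 20.5 ± 5.55 CPM (SD, n = 3), and its log2 fold change was 0.28 ± 0.23 (SE; adjusted p = 0.807, edgeR). It was 0.044 without mutant pool 3 and 0.44 without mutant pool 1. Irf9 shares 123 bases with Rnf31, which lies on the same strand, and reads from those bases cannot be assigned to either gene.

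Irf7 drives the interferon alpha genes and is itself induced by interferon. Irf7 (ENSMUSG00000025498, chr7:141262706-141266481) had 7.69, 8.63 and 11.7 CPM in control pools 1 to 3 and 13.4, 12.5 and 11.9 CPM in mutant pools 1 to 3. All 3 mutant libraries were above all 3 control libraries, but mutant pool 3 and control pool 3 were close. The means were 9.35 ± 2.11 CPM in control and 12.6 ± 0.768 CPM in mutant IVDs (SD, n = 3). The log2 fold change of 0.42 ± 0.25 (SE) had a 95% interval of -0.13 to 0.98, and the difference did not pass the test (unadjusted p = 0.120, adjusted p = 0.748, edgeR). In the mutant direction, 5.53% of all genes tested had groups that did not overlap. Without control pool 3, the control nearest the mutant pools, the log2 fold change was 0.63 (unadjusted p = 0.037, edgeR). No adjusted p in that fit was under 0.999 among the 10 genes. In the other fits without 1 library, the unadjusted p of edgeR for Irf7 was 0.147 to 0.268. The summed neutrophil markers ranged from 16.6 to 61.1 CPM in control and from 34.9 to 162 CPM in mutant libraries, and 9 of the 9 tested markers were above 0 in log2 fold change (7818 of all 16152 genes tested were), 2 of them at an unadjusted p under 0.05, where 7.21% of all genes were called. Of these markers, Prtn3 and Ctsg were at 0 in control pool 1. The summed neuron and glia markers ranged from 47.8 to 134 CPM in control and from 146 to 244 CPM in mutant libraries. Of the 4 tested markers, 2 were above and 2 below 0 in log2 fold change, and 1 was called. None of them had groups that did not overlap. The part of either kind of cell in the level of Irf7 was not tested. Irf7 shares 45 bases with Phrf1 on the opposite strand.

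The Ifit proteins bind foreign RNA and block its translation. Ifit1 (ENSMUSG00000034459, chr19:34640871-34650009) had 2.14, 3.87 and 6.21 CPM in control pools 1 to 3 and 1.36, 2.77 and 1.80 CPM in mutant pools 1 to 3, from 12 to 80 counts a library. Of the mutant libraries, 2 lay below all control libraries and mutant pool 2 lay within the control range. The means were 4.07 ± 2.04 CPM in control and 1.98 ± 0.719 CPM in mutant IVDs (SD, n = 3). Its log2 fold change of -1.04 ± 0.54 (SE) was the largest in size of the 10 genes, with a 95% interval of -2.25 to 0.17, and it did not pass the test (unadjusted p = 0.0850, adjusted p = 0.725, edgeR). Without control pool 1, the library with the muscle markers, the log2 fold change was -1.32 (unadjusted p = 0.027, adjusted p = 0.273, edgeR). Over the 6 fits that each left out a library, it ranged from -1.35 to -0.58.

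Ifit3 lies in the same gene cluster as Ifit1, and its protein binds that of Ifit1. Ifit3 (ENSMUSG00000074896, chr19:34583531-34588731) had 7.16, 11.8 and 14.5 CPM in the control pools and 6.82, 7.98 and 13.5 CPM in the mutant pools. The lowest and the highest library of each group lay close to those of the other group. The means were 11.2 ± 3.73 and 9.42 ± 3.55 CPM (SD, n = 3), and the log2 fold change was -0.25 ± 0.35 (SE; adjusted p = 0.887, edgeR). Without 1 library it ranged from -0.59 (without mutant pool 3) to -0.0053 (without control pool 3). The values of Ifit3 are uncertain, since 1700 of the 1745 bases of its transcript are 97.8% identical to Ifit3b, which has no row of its own.

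Oasl2 belongs to the family of oligoadenylate synthetases, which answer double-stranded RNA. Oasl2 (ENSMUSG00000029561, chr5:114896936-114912234) had 5.02, 3.21 and 7.92 CPM in the control pools and 3.98, 6.19 and 5.20 CPM in the mutant pools. All mutant libraries lay within the control range. Oasl2 had a log2 fold change of -0.08 ± 0.41 (SE), with means of 5.38 ± 2.38 and 5.12 ± 1.11 CPM (SD, n = 3; adjusted p = 0.973, edgeR).

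Rsad2 encodes viperin, an enzyme that makes a chain-terminating nucleotide. Rsad2 (ENSMUSG00000020641, chr12:26442746-26456452) had 9.82, 3.54 and 3.57 CPM in control pools 1 to 3 and 4.32, 10.8 and 4.35 CPM in mutant pools 1 to 3. Each group had 1 library at about 10 CPM, control pool 1 and mutant pool 2, and 2 libraries between 3.54 and 4.35 CPM. The means were 5.65 ± 3.62 and 6.50 ± 3.75 CPM (SD, n = 3), and the log2 fold change was 0.22 ± 0.52 (SE; adjusted p = 0.943, edgeR). It was 0.89 without control pool 1 and turned below 0 without mutant pool 2 (-0.37), control pool 2 (-0.023) or control pool 3 (-0.014), and in none of these fits was the unadjusted p of edgeR under 0.05.

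Bst2 encodes tetherin, which holds budding viruses at the cell surface. Bst2 (ENSMUSG00000046718, chr8:71534255-71537456) had 16.8, 15.7 and 12.7 CPM in control pools 1 to 3 and 11.5, 11.0 and 11.2 CPM in mutant pools 1 to 3. All 3 mutant libraries were below all 3 control libraries and close to each other. The means were 15.1 ± 2.09 CPM in control and 11.2 ± 0.241 CPM in mutant IVDs (SD, n = 3). Its log2 fold change of -0.42 ± 0.21 (SE) had a 95% interval of -0.90 to 0.05 and did not pass the test (unadjusted p = 0.0740, adjusted p = 0.706, edgeR). In this direction, 5.89% of all genes tested had groups that did not overlap. Without control pool 3, the control nearest the mutant pools, the log2 fold change was -0.52 (unadjusted p = 0.045, adjusted p = 0.999, edgeR). In the other fits without 1 library, the unadjusted p of edgeR was 0.131 to 0.232. The summed neuron and glia markers had a correlation of -0.82 with Bst2 over the 6 libraries. It was the largest in size of the correlations of Bst2 with 13 marker lists. Of all 130 relations of a gene with a marker list, the largest in size was that of Ifit3 with osteoblast markers (-0.89). The neuron and glia sums set the groups apart, though 2 of the 4 tested markers were above and 2 below 0, as given for Irf7. The part of these cells in the level of Bst2 was not tested.

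Isg15 is a ubiquitin-like protein that is joined to other proteins under interferon. Isg15 (ENSMUSG00000035692, chr4:156199424-156200818) had 2.56, 1.11 and 1.24 CPM in control pools 1 to 3 and 2.95, 4.07 and 1.17 CPM in mutant pools 1 to 3, from 10 to 50 counts a library. Mutant replicates 1 and 2 were above all control libraries and mutant pool 3 was below 2 of them. The means were 1.64 ± 0.805 and 2.73 ± 1.47 CPM (SD, n = 3). The log2 fold change of 0.74 ± 0.63 (SE) had a 95% interval of -0.65 to 2.14 (adjusted p = 0.813, edgeR), which reaches from 0.636 to 4.41 times the control level. It was 1.23 without control pool 1 and 0.34 without mutant pool 2, and in neither fit was the unadjusted p of edgeR under 0.05. Isg15 had the fewest counts of the 10 genes (137 in all). A processed pseudogene, AC151275.1, is 95.2% identical over 482 bases, which makes its counts uncertain.

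Usp18 removes Isg15 from proteins and also shuts off signalling at the interferon receptor. Usp18 (ENSMUSG00000030107, chr6:121245906-121270917) had 3.63, 5.09 and 6.05 CPM in the control pools and 2.95, 6.51 and 4.56 CPM in the mutant pools. The mutant libraries spanned the control range. Usp18 had a log2 fold change of -0.08 ± 0.41 (SE), with means of 4.92 ± 1.22 and 4.68 ± 1.78 CPM (SD, n = 3; adjusted p = 0.975, edgeR). The antisense transcript Gm44148 shares 126 of the 1771 exon bases of Usp18, and without a stated strand setting reads from those bases cannot be told apart.

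**Figure D3:**
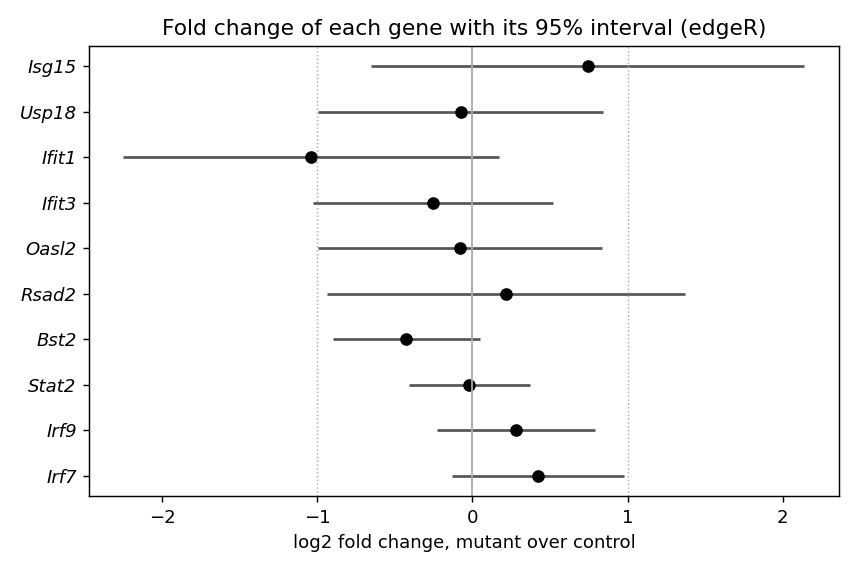
Log2 fold change of mutant over control from edgeR (points) with its 95% interval (lines) for the 10 interferon response genes. All 10 intervals include 0; the narrowest is that of Stat2 (-0.41 to 0.37) and the widest that of Isg15 (-0.65 to 2.14).

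Per kilobase of exon, Bst2 was the highest of the 10 genes in every library, with a mean level of 16.6 ± 3.14 CPM per kb (SD, n = 6) and a range of 13.9 to 21.2. No library of Stat2, the next gene, reached that range, and Stat2 had a mean level of 6.67 ± 0.708 CPM per kb. Irf9 followed with a level of 6.02 ± 1.38, Ifit3 with 5.90 ± 1.94 and Irf7 with 4.59 ± 0.954 CPM per kb. Isg15 had a level of 2.89 ± 1.61, Usp18 2.71 ± 0.775, Oasl2 1.68 ± 0.533, Rsad2 1.61 ± 0.880 and Ifit1 1.14 ± 0.673 CPM per kb. From Stat2 down, the range of each gene over libraries overlapped that of the next in this order. Within libraries, Usp18 was above Oasl2 in all 6, while the other neighbours from Stat2 down kept their order in 3 or 4 of the 6 libraries. The 3 signalling factors and Bst2 varied least among libraries, with a highest library 1.34 to 1.76 times the lowest, and Ifit1 (4.56 times), Isg15 (3.68 times) and Rsad2 (3.06 times) varied most.

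The 10 genes did not rise and fall together over the 6 libraries. Their summed CPM was 98.6, 96.9 and 115 in control pools 1 to 3 and 92.8, 105 and 114 in mutant pools 1 to 3, so the groups overlapped. Mutant replicate 2 and control pool 3 each held the highest level of 3 genes, and control pool 2 held the lowest level of 4. Of the 45 pairs of genes, 25 had a Pearson correlation of log2 CPM above 0, and the median was 0.06. These correlations are over 6 libraries that also share depth and tissue makeup, and they are given as a description. The highest was that of Isg15 and Rsad2 (0.79), for both of which control pool 1 and mutant pool 2 were among the 3 highest libraries. The lowest was that of Irf7 and Bst2 (-0.96). The red blood cell markers, 8 rows of 9 genes, summed to 326, 43.7 and 100 CPM in control pools 1 to 3 and to 266, 427 and 206 CPM in mutant pools 1 to 3. They had a correlation of 0.82 with Isg15 and 0.78 with Rsad2, among 130 relations of a gene with a marker list, and their part in these levels was not tested. Of the markers of plasmacytoid dendritic cells, which make type I interferon, all 6 had a row and 3 were tested, with 0 called (7.21% of all genes tested were), and their sums were 10.1 to 29.6 CPM in control and 8.38 to 11.4 CPM in mutant libraries. Siglech was at 0 in 2 libraries and at most 0.977 CPM in the others, while Ccr9 had 4.24 to 9.55 CPM, Pacsin1 up to 3.65 CPM, and Cox6a2, which skeletal muscle also expresses, 22.7 CPM in control pool 1 (the library with the muscle markers) and at most 1.70 CPM elsewhere.

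**Figure D4:**
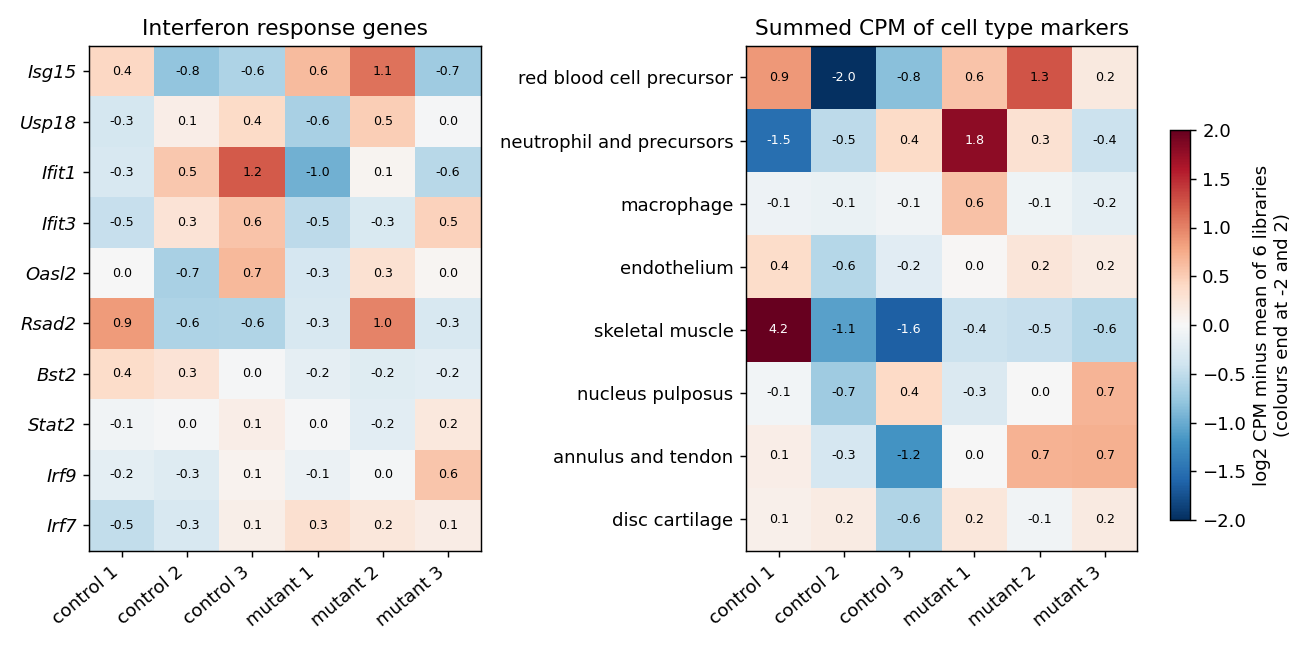
Log2 CPM of each interferon response gene (left) and log2 of the summed CPM of cell type markers (right), each minus its mean over the 6 libraries, with numbers in the cells and colours that end at -2 and 2. No library is high or low for all 10 genes, and control pool 1 is high in skeletal muscle markers by more than the colours show.

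The genes whose pattern over the 6 libraries was most like that of the 10 genes were found by the Pearson correlation of log2 CPM with the mean of their standardized levels. Those 10 genes were Cdh6 (0.991), Pcdh7 (0.987), Rpl9-ps6 (0.985), Trim30d (0.983), Nav3 (0.981), AU019990 (0.981), Gucy1a2 (0.979), St6galnac3 (0.977), Kirrel3 (0.977) and Aig1 (0.977). Trim30d is the one of them that belongs to a family induced by interferon, and it was in none of the lists. These correlations were picked as the highest of all genes tested, over only 6 libraries, and are a description with no test. Of the 10 interferon response genes, 8 had a correlation above 0 with this mean, which includes them (median 0.45). Bst2 (-0.34) and Isg15 (-0.24) were below 0. Among the lists, Rtp4 (0.977) and Ifi35 (0.939), both induced by type I interferon, had a similar pattern and were named after their values were seen. Over the other type I interferon-induced genes, 29 of 52 tested had a correlation above 0 (median 0.10), and over the other interferon regulatory factors 4 of 4 (median 0.61). Class I antigen presentation had 10 of 18 (median 0.05), interferon gamma-induced genes 6 of 14 and nucleic acid sensing 7 of 16 (both medians -0.06). Fewer were above 0 among the receptors and kinases (2 of 9, median -0.36), the inhibitors (2 of 8, -0.39) and ISG15 conjugation (1 of 4, -0.33). The 6 tested markers of the nucleus pulposus all had a correlation above 0, with a median of 0.73 where all genes had a median of -0.03. In the other direction, 0 of 8 disc cartilage markers (median -0.53), 0 of 5 osteoblast markers (median -0.48) and 0 of 6 skeletal muscle markers (median -0.38) had a correlation above 0. The nucleus pulposus sums were 3297, 2097 and 4537 CPM in control pools 1 to 3 and 2804, 3415 and 5522 CPM in mutant pools 1 to 3. Irf9 had the strongest relation to these sums (0.88), and the part of these cell types in the levels was not tested.

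The wider set of genes that type I interferon induces was split in direction. Of 68 such genes, 65 had a row and 52 were tested, of which 26 were above and 26 below 0 in log2 fold change, with a median of 0.01. At an unadjusted p under 0.05, edgeR called 6 genes higher and 0 lower (11.5%), where 2.89% of all genes tested were called higher and 4.32% lower, and at an adjusted p under 0.05 it called none. DESeq2 called 4 of the 52 higher and 0 lower at an unadjusted p under 0.05, and 1227 of all 16152 genes. Leaving out 1 library at a time gave 2 to 7 genes higher and 0 to 2 lower. Without control pool 3, 2 were higher and 0 lower, in a fit that called 618 of 16388 genes. Without control pool 1, 7 were higher and 1 lower (Trim30a), in a fit that called 2427 of 17164 genes. Without control pool 2, 3 were higher and 0 lower, where 929 of 16610 genes were called. Without mutant pool 3, 4 were higher and 2 lower (Ifi44 and Trim30a), where 874 of 17142 genes were called. Ifitm3 and Helz2 were among the called genes in each of those 6 fits.

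Ifitm3 blocks the entry of viruses from endosomes. Ifitm3 had 28.5, 23.2 and 25.6 CPM in control pools 1 to 3 and 42.3, 42.6 and 39.2 CPM in mutant pools 1 to 3. The groups were apart by more than the range of either, and the log2 fold change was 0.68 ± 0.16 (SE; unadjusted p = 0.0016, adjusted p = 0.576, edgeR). Helz2, a helicase, had a mean of 10.2 ± 2.11 CPM in control and 17.7 ± 1.31 CPM in mutant IVDs (SD, n = 3) and a log2 fold change of 0.80 ± 0.23 (SE; unadjusted p = 0.0056, adjusted p = 0.676, edgeR). Ly6e had 54.2 ± 5.03 and 74.7 ± 5.10 CPM, and Shisa5 had 69.6 ± 9.73 and 91.1 ± 3.22 CPM (SD, n = 3). The log2 fold changes of these genes were 0.46 and 0.39, each with all 3 mutant libraries above all controls. Shisa5 was not called with the replicate block, with no filter or in 5 of the 6 fits without 1 library, and Ly6e was not called without control pool 3. The other called genes were Pml and Slfn9, of which Slfn9 was called in 2 of the 11 alternatives and Pml in 6. The macrophage markers had 8 of 10 tested genes above 0 and 1 called (Cd68), where 7818 of all 16152 genes tested were above 0 and 7.21% were called, and they summed to 116 to 122 CPM in control and 112 to 192 CPM in mutant libraries. The annulus and tendon markers had 4 of 5 tested genes above 0 and 2 called higher, and they summed to 6654 to 16739 CPM in control and 15131 to 25030 CPM in mutant libraries. The part of either kind of cell in these levels was not tested. The most abundant genes of the list, Ifi27, Trim30a and Ifitm2, had log2 fold changes of -0.23, -1.17 and 0.03. None of them passed an unadjusted p under 0.05 in the main edgeR fit. Trim30a was called lower in some alternative fits, which are given under the other observations.

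**Figure D5:**
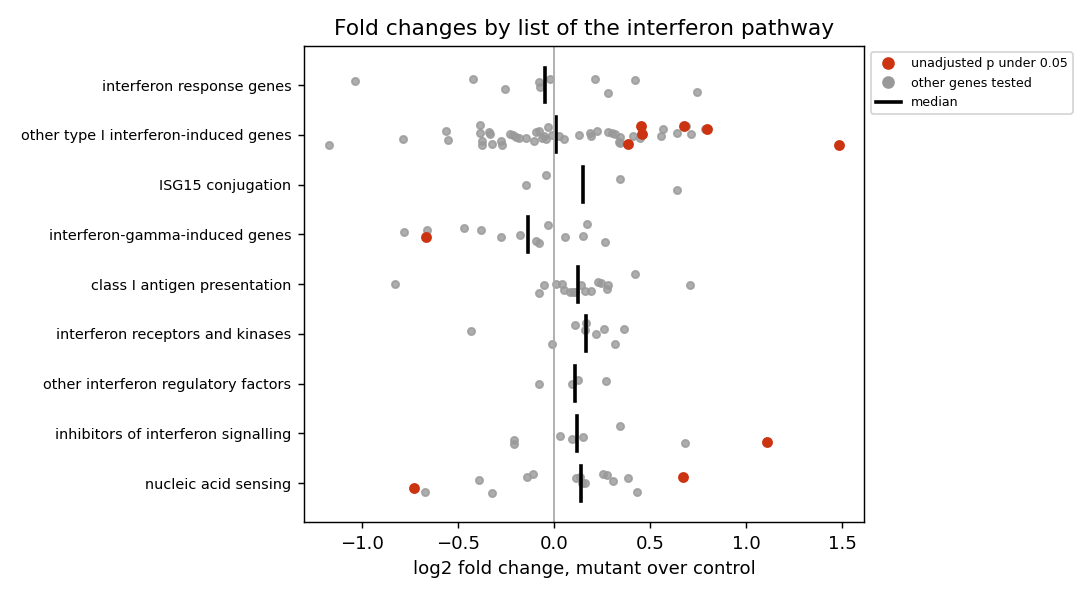
Log2 fold change of mutant over control for the tested genes of each list of the interferon pathway, with red points for an unadjusted p under 0.05 in edgeR, grey points for the other genes and a black bar at the median; the vertical spread of points carries no value. The medians lie between -0.13 and 0.17, and the 10 interferon response genes hold no red point.

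Interferon ligands were at or near 0. Of 20 ligand genes, 17 had 0 counts in every library, Ifnb1 among them, and no gene passed the filter. The zero of Ifnl2 is uncertain, since it lies inside Samd4b on the same strand. For the others, a count of 0 allows up to 0.233 to 0.341 CPM, depending on the library, at a limit of 3 counts. This limit covers counting error only. It does not cover reads that a ligand gene may share with related genes, which were not examined. The 9 receptor chains and kinases that read the ligands were all tested. edgeR called 0 of the 9 at an unadjusted p under 0.05, where 7.21% of all genes tested were called, their log2 fold changes ran from -0.43 to 0.36, and the median was 0.17. The other interferon regulatory factors had 4 tested genes and the ISG15 conjugation enzymes 4, and edgeR called none of either at an unadjusted p under 0.05. Of the conjugation enzymes, Ube2l6 was called higher without control pool 1 and in limma-voom.

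Among 8 inhibitors of interferon signalling, Socs3 was the 1 gene called at an unadjusted p under 0.05 (12.5%, against 7.21% of all genes tested). Socs1 was also called higher without control pool 2 or mutant pool 2, and Pias1 lower without mutant pool 2. Socs3, which blocks the receptor kinases and is best known as a target of Stat3, had 28.5, 27.4 and 18.9 CPM in control pools 1 to 3 and 68.6, 37.0 and 55.9 CPM in mutant pools 1 to 3. Its log2 fold change was 1.11 ± 0.25 (SE; unadjusted p = 0.0012, adjusted p = 0.553, edgeR), and its adjusted p was 0.021 in DESeq2 and 0.0011 in edgeR with no filter on low counts. These fits called 58 and 245 of all genes at an adjusted p under 0.05. In limma-voom no adjusted p of the 8 inhibitors was under 0.287. In the remaining alternatives, all of them edgeR fits, none was under 0.0935, the value without control pool 1. Socs1, an inhibitor that interferon itself induces, had 5.04 ± 2.87 CPM in control and 8.10 ± 3.63 CPM in mutant IVDs (SD, n = 3), and its log2 fold change was 0.68 ± 0.49 (SE; adjusted p = 0.788, edgeR).

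Genes of nucleic acid sensing, which start interferon production, had 16 tested members. Of these, 1 was called in each direction at an unadjusted p under 0.05 (12.5%, where 7.21% of all genes tested were called). Ikbke was also called higher in limma-voom and without control pool 1, and Rnaseh2c lower without mutant pool 2. Dhx58, which encodes the RNA sensor LGP2, had a mean of 37.0 ± 6.15 CPM in control and 22.4 ± 2.00 CPM in mutant IVDs (SD, n = 3). All mutant libraries were below all controls, and the log2 fold change was -0.73 ± 0.18 (SE; unadjusted p = 0.0023, adjusted p = 0.620, edgeR). Ticam1, the adaptor of Toll-like receptor 3, had a mean of 17.9 ± 4.94 CPM in control and 28.6 ± 5.96 CPM in mutant IVDs (SD, n = 3). Its log2 fold change was 0.67 ± 0.24 (SE; unadjusted p = 0.020, edgeR), and it was not called in 4 of the 6 fits without 1 library. Myd88 and Trex1 had 0 counts in every library, and each lies inside another gene on the same strand (Slc22a14 and Atrip), which makes these zeros uncertain.

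Genes that interferon gamma induces had 14 tested members, of which 4 were above and 10 below 0, with a median of -0.13. edgeR called 1 of the 14 at an unadjusted p under 0.05, a share of 7.14% that is near the 7.21% of all genes tested. This gene, H2-DMb1, had a mean of 11.0 ± 2.59 CPM in control and 6.89 ± 0.485 CPM in mutant IVDs (SD, n = 3) and a log2 fold change of -0.67 ± 0.28 (SE). H2-DMb1 encodes a chain of the protein that loads peptides onto class II molecules. It was not called in limma-voom, with the replicate block or with no filter on low counts. Nor was it called in 5 of the 6 fits without 1 library (all but that without control pool 3). Gbp2 was called lower without control pool 2, and without mutant pool 2 Gbp5 was called lower and H2-Ab1 higher. The genes of class I antigen presentation had 18 tested members, 15 above and 3 below 0 with a median of 0.12. Of all 16152 genes tested, 7818 were above 0. Of the 18, edgeR called none at an unadjusted p under 0.05, against 7.21% of all genes tested. Reads of the H2 genes can be shared among near-identical copies, so their values are uncertain.

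Of the genes tested, 402 had an ISRE core in their promoter, and their median was -0.02 in log2 fold change. Of these, 14 were higher and 15 lower at an unadjusted p under 0.05, which is 7.21%. The 10869 tested genes with a promoter but without the core had a median of -0.01, with 315 higher and 476 lower (7.28%) by the same rule. The difference between these sets of genes was not tested.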

How the data were processed

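The authors deposited raw counts per gene symbol, 1 file per library, made from poly(A), paired-end libraries (NEBNext Ultra). The study's methods name Cutadapt, FastQC and HISAT2 on GRCm38.88, with StringTie for expression levels and Ballgown for differences between groups. The submitters' processing notes name STAR 2.5.3a, HTSeq and DESeq2 instead, and the strand setting is not given in the sources used here. The authors' table of DESeq2 fold changes and p-values was not used. In the count files, 40.4% to 44.2% of reads fell on genes, and the lines for reads outside genes were left out of library sizes. Counts were tested with edgeR 4.0.16 in R 4.3.3 on all 6 libraries (TMM, filterByExpr with a count minimum of 10, quasi-likelihood test, Benjamini-Hochberg adjustment over 16152 genes). The 95% intervals and SEs of log2 fold changes come from the same fit, and log2 CPM used a prior count of 2. Alternative fits used DESeq2 1.42.0, limma-voom 3.58.1 with quality weights, RLE size factors, no filter or a block for the replicate number, or dropped 1 library at a time. The alternatives for the other gene lists were chosen after seeing the data. The script was tested on simulated data. Coordinates, overlaps and lengths (exons of protein-coding transcripts of the basic set) are from GENCODE M21 on GRCm38, and promoters from RefSeq on GRCm38.p6.

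The members and all gene lists were chosen with earlier results of these data known. Named were the 10 members, up to 4 genes with the smallest unadjusted p under 0.05 in each other list of the interferon pathway, the 3 most abundant other type I interferon-induced genes, Socs1 and Socs3, and the 10 genes with the most similar pattern. Other genes were named after their values were seen. The p-values measure only the spread between these pools, which may be partly technical. Reads carry no molecular identifiers, so limits from counts cover counting error only. Some genes are not reported here.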

Additional observations from a re-analysis of the deposited data

How the results depend on the processing

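The 10 interferon response genes gave 110 fits under 11 alternatives, of which 12 turned the direction and 3 passed an unadjusted p under 0.05, and for 6 of the 10 genes no alternative turned the direction. In limma-voom, Stat2 (0.037) and Oasl2 (0.11) turned above 0. Leaving out 1 library gave log2 fold changes of -0.13 to 0.093 for Stat2, -0.35 to 0.33 for Oasl2, -0.37 to 0.89 for Rsad2 and -0.38 to 0.20 for Usp18, and a median over the 10 genes of -0.18 (without mutant pool 2) to 0.16 (without mutant pool 1). It gave 0 to 2 of the 10 at an unadjusted p under 0.05 (Ifit1 without control pool 1, Irf7 and Bst2 without control pool 3), and 0 at an adjusted p under 0.05 in every alternative, where the lowest adjusted p of the 10 was 0.273 to 0.999. Over all genes, leaving out 1 library gave 618 to 2427 genes at an unadjusted p and 0 to 31 at an adjusted p under 0.05. With no filter these counts were 2276 and 245, and the adjusted count was 58 in DESeq2 and 0 in limma-voom. The cause was not tested. With the replicate number as a block, 1002 genes passed an unadjusted p and 0 an adjusted p under 0.05, and 0 of the 10. Deviations of same-numbered libraries correlated at -0.13 to 0.16. These few values cannot decide whether the numbers pair the pools, and the labels do not say. At 137 to 1812 counts per gene over all libraries, Stat2 and Bst2 had 95% intervals under 0.5 on either side of the estimate and the other 8 genes wider ones.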

Other observations

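Trim30a, a member of the Trim30 family that interferon induces, varied widely between libraries of a group. It had 34.6, 263 and 205 CPM in control pools 1 to 3 and 32.8, 57.7 and 133 CPM in mutant pools 1 to 3. Its log2 fold change was -1.17 ± 0.65 (SE; unadjusted p = 0.101, edgeR), and it was called lower at an unadjusted p under 0.05 in 4 alternatives: without control pool 1, without mutant pool 3, with the replicate block and with no filter. Reads of Trim30a may be shared with the near copies of that family, among them Trim30d, so its level is uncertain.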
